A study of Mus musculus with 6 samples.

Results

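CD4+ T cells from the spleen that carried ICOS but no Il21 reporter signal were compared with CD4+ T cells that carried neither. ICOS is a costimulatory receptor of the CD28 family that CD4+ T cells raise after activation and keep on many memory, regulatory and follicular helper cells. The mice were C57BL/6, postnatal day 28, and every pool came from the same IL21-VFP reporter genotype, in which cells that transcribe Il21 fluoresce with VFP. CD4+ cells were sorted by flow cytometry, and the ICOS-, VFP- pool is called N and the ICOS+, VFP- pool ACT. A further pool, ICOS+ and VFP+, is called ACT_IL21 and was used only to help estimate the spread between libraries. The comparison was defined by these labels, and its members are 4 of the 6 libraries, 2 of N and 2 of ACT. All 13311 genes that reached 1 TPM (transcripts of the gene per fixed total of transcripts) in 2 or more libraries of the 6 entered the test. The series describes the mice as naive, and the labels do not tell whether a pool's 2 libraries are from different mice. A p-value here thus reflects library-to-library spread, which could be purely technical.

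A naive T cell circulates between blood and lymphoid organs with a compact cytoplasm and little effector machinery. On activation it rebuilds its actin cortex, secretory and lysosomal compartments, surface sugars, receptors and metabolism, and many of these changes persist in memory cells. The gene families of those systems are described here: how many members of each moved, which ones, and by how much.

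The libraries resembled each other within pools. Spearman correlations across genes were 0.971 between the N libraries and 0.941 between the ACT libraries, against 0.904 to 0.916 between an N and an ACT library, and genes are not independent replicates. Each of these 4 libraries had 12095 to 12200 genes at 1 TPM or more. Read depth is unknown because TPM keeps no record of it. The labelled cell type was present in both pools: Cd3e, Cd3d, Cd3g, Cd4 and Trac were all expressed, and 0 of these 5 passed the limma threshold. Some markers of other lymphocytes were higher in the ICOS+ pool. The summed level of 8 natural killer and NKT markers was 51.0 and 55.9 TPM in N and 323 and 350.0 TPM in ACT. Of the 7 that were tested 3 rose, namely Klrb1c, Zbtb16 and Klrc1, and Klrb1c alone was at 166 and 177 TPM in ACT. Klrd1, Eomes, Gzma and Prf1 did not pass. Ncr1, which defines natural killer cells, was listed at 0 and 1.06 TPM in ACT. The 5 gamma delta T cell markers in the table summed to 13.6 and 9.79 TPM in N and 900.2 and 625 TPM in ACT. Of 4 tested, 3 rose, all of them Tcrg constant segments, while Sox13 was at 3.97 and 0 TPM and Trdv4 at 0 and 2.32 TPM in ACT. All 4 regulatory T cell markers rose, and their sum went from 121 and 156 TPM to 553 and 701 TPM. Foxp3 was at 22.2 and 19.4 TPM in N and 65.4 and 51.9 TPM in ACT. Larger parts of the ACT sum were Ctla4, at 190 and 312 TPM, and Ikzf2, at 173 and 211 TPM. The calls of Il2ra and of the natural killer marker Klrc1 were lost in some refits with a library left out. Cd8a, Ms4a1, Pax5, Csf1r, Cd14, Siglech, Kit, Fcer1a and Mzb1 were listed at 0 in both ACT libraries. Cd8b1, also a CD8 T cell marker, was at 26.7 and 18.7 TPM in N and 5.59 and 7.41 TPM in ACT. Of the B cell markers, Cd79b was at 1.58 and 0.54 TPM in N and 2.47 and 2.1 TPM in ACT. Cd22 was at 0 and 0.07 TPM in N and 1.62 and 3.68 TPM in ACT. Cd8b1, Cd79b and Cd22 did not pass. Among the other markers, Irf4 and Prdm1 of the plasma cell list, Cst3 of the myeloid list and Il1rl1 of the innate lymphoid and mast cell list rose, and their sums were at most 73.6 TPM. Calls of Cst3 and Il1rl1 were also lost in some refits. Refits are not given here for Foxp3, Zbtb16 and Irf4. The sums of the natural killer and NKT, gamma delta and regulatory markers rose, as did many genes below. Their part in those results was not tested. In bulk RNA, fewer cells of a type and less RNA per cell cannot be told apart.

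The gate genes and the marker genes S100a4, Cxcr6 and Lef1 were read in every library. Icos (chromosome 1, 60977927 to 61000320, plus strand, GRCm38, protein-coding) was at 35.7 and 31.9 TPM in N and 254 and 241 TPM in ACT. S100a4 (chromosome 3, 90603771 to 90606045, plus strand), a small calcium-binding protein of motile and memory cells, was at 6.04 and 5.16 TPM in N and 385 and 497 TPM in ACT. Cxcr6 (chromosome 9, 123806475 to 123811760, plus strand), a chemokine receptor of tissue-homing cells, was at 7.44 and 9.14 TPM in N and 635 and 489 TPM in ACT. These 3 markers were higher in both ACT libraries than in either N library. Lef1 (chromosome 3, 131110471 to 131224356, plus strand), a transcription factor of naive cells, was at 401 and 406 TPM in N and 108 and 126 TPM in ACT, and here the order was the opposite. Both N libraries listed Il21 at 0, the ACT libraries at 0 and 1.26 TPM, and Cd4 was at 358 and 316 TPM in N and 268 and 236 TPM in ACT, which did not pass (log2 fold change -0.42 ± 0.14 SE, adjusted p = 0.158). ICOS and VFP set the gates, so Icos and Il21 check the labels and are no finding. S100a4, Cxcr6 and Lef1 set no gate and were chosen with earlier results of these data known. Their values describe the pools and are no check of the labels.

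Genes that rose in ACT outnumbered those that fell. With limma's moderated test and Benjamini-Hochberg adjustment over all genes at a threshold of 0.05, 553 genes were higher (4.15% of those tested), 190 were lower (1.43%) and 12568 did not pass, so 743 (5.58%) were called in either direction. The median log2 fold change over all genes was 0.02 on the log2(TPM + 1) scale used throughout, and 639 genes (4.8%) passed with more than a 2-fold change. The 2 ACT libraries did not overlap the 2 N libraries for 6258 genes (47%). Levels in the 2 directions are given as a description, since a gene under 1 TPM in N can hardly fall on this scale and enters the test mostly through the other pools. Genes that rose had a median of 5.91 TPM in N and 37.6 TPM in ACT. Of them, 143 (25.9%) averaged under 1 TPM in N, against 9.58% of all genes tested. Among the 143 that rose from under 1 TPM, 55 averaged at least 10 TPM in ACT. Genes that fell had a median of 77.1 TPM in N and 26.5 TPM in ACT. Of these, 113 (59.5%) averaged at least 50 TPM in N, against 21.2% of all genes tested. Among genes with a position in the annotation, 93.2% of those that rose and 82.4% of those that fell were protein-coding, against 86.4% of those tested. The counts depended on the N libraries: 216 genes were higher and 44 lower without N replicate 1, and 220 and 55 without N replicate 2. Without ACT replicate 1 they were 374 and 166, and without ACT replicate 2 they were 470 and 208. With each of the 6 libraries left out in turn, 181 genes (1.36%) were called higher every time and 41 (0.308%) lower every time. Genes of this kind are called steady below, and a bare number after a gene's name is its log2 fold change.

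**Figure D1:**
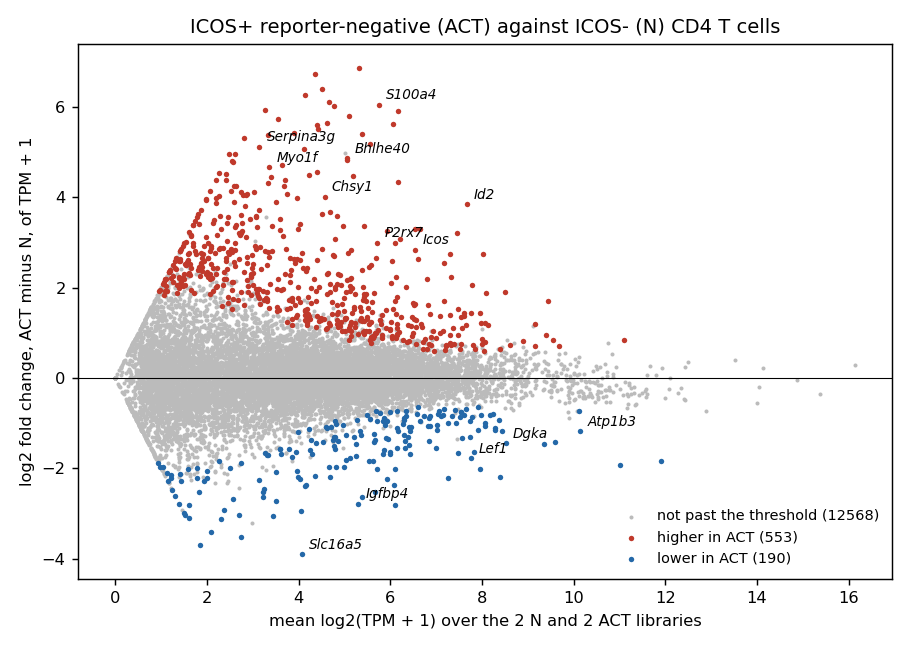
Each point is 1 of 13311 genes, with the mean log2(TPM + 1) over the 2 N and 2 ACT libraries on the horizontal axis and the log2 fold change (ACT minus N) on the vertical axis. The 553 genes that rose (red) reach down to low mean levels, while many of the 190 that fell (blue) sit at higher levels, such as Dgka and Atp1b3.

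Sequences before the RefSeq start sites of the genes that moved were examined next, because shared letters can be shown beside the changes. RefSeq promoters of GRCm38.p6, 250 bases before the start site listed first for a gene, were matched by symbol for 8646 of the tested genes, 387 of those that rose and 116 of those that fell. The letters TGANTCA, bound by AP-1 factors that T cell receptor signalling induces, were found on either strand in 35 promoters of genes that rose (9.04%). They were in 5 promoters of genes that fell (4.31%), in 3.97% of tested promoters and in 6.75% of all 32851 promoters in the table. These 32851 include genes that were not tested and, for some genes, several start sites, so their shares count another unit. TTCNNNGAA, the core bound by STAT factors of cytokine signalling, was in 8.01% of promoters of genes that rose, 4.31% of those that fell, 6.19% of tested promoters and 7.02% of all. CCACCC, bound by KLF factors, was in 37% and 40.5%, against 32.1% of tested and 28.1% of all promoters. TCACACC, bound by T-box factors, was in 2.58% and 3.45%, against 2.78% of tested and 3.33% of all. A promoter can count for more than 1 motif. The median GC content was 56.4% for promoters of genes that rose, 60.8% for those of genes that fell and 59.6% for tested promoters, and its part in the shares was not tested. A match describes letters and is no evidence of binding.

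The AP-1 matches before the RefSeq start sites of 4 steady genes that rose are printed, each 5′ to 3′ on the gene's strand with the match in capitals, to show the match in its surroundings. Arhgap18 (chr10:26772262-26772511, plus strand) encodes a GTPase-activating protein, Ccr4 (chr9:114496545-114496794, minus strand) a chemokine receptor, F2r (chr13:95618467-95618716, minus strand) the thrombin receptor and Glrx (chr13:75839635-75839884, plus strand) glutaredoxin. The stretches of Arhgap18 and Ccr4 lie inside the spans of these genes in GENCODE M21, so they stand before internal start sites. These genes were chosen after their values were seen.
Arhgap18: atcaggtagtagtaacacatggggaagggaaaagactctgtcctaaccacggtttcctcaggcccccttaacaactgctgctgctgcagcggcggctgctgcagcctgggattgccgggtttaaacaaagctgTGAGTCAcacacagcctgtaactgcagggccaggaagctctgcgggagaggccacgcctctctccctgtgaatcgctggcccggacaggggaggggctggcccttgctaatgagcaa
Ccr4: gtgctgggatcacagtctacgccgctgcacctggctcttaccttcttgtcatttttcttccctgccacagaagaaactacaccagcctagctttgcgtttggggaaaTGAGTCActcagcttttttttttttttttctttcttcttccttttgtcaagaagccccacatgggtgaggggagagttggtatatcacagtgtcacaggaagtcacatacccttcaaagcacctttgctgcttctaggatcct
F2r: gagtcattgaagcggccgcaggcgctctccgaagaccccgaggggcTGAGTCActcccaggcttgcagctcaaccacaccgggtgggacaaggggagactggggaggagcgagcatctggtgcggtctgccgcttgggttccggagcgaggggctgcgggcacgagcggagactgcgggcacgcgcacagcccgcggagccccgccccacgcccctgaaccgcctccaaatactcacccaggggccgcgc
Glrx: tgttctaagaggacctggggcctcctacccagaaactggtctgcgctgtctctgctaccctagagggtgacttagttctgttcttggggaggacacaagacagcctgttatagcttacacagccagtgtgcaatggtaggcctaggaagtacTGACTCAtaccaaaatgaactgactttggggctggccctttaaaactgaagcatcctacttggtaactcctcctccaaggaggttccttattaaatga
The match starts 117, 143, 204 and 98 bases before the start site, in that order. Ccr4, which draws T cells toward skin and type 2 responses, was at 1.84 and 2.55 TPM in N and 168 and 122.8 TPM in ACT (log2 fold change 5.51 ± 0.23 SE, adjusted p = 3.26e-05). Values of Arhgap18, F2r and Glrx follow with their families.

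A neighbouring pair of protease inhibitor genes is printed to show how alike the stretches before their start sites are. How alike their transcripts are was not measured, and their separate values are uncertain where reads could fit both. Serpina3f (chr12:104214294-104214543, plus strand) and Serpina3g (chr12:104235897-104236146, plus strand) each hold a STAT match, shown in capitals, 121 and 33 bases before their start sites.
Serpina3f: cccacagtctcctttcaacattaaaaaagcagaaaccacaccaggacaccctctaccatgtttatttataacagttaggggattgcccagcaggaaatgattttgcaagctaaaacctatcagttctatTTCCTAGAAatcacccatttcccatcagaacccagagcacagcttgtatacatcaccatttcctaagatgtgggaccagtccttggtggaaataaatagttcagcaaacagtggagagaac
Serpina3g: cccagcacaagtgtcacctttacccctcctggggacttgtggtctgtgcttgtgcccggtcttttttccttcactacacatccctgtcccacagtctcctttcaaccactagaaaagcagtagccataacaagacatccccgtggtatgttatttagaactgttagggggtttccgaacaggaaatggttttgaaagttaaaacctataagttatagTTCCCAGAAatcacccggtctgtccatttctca
With the Serpina3f base 250 before its start set against the Serpina3g base 163 before its start, 119 of 147 aligned columns were identical (81%). The values of the pair follow with the proteases.

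The gene lists were then read against the share of all tested genes called in the same direction. In the plot of list shares, circadian clock genes stood highest among genes that rose, and G protein-coupled receptors, adhesion receptors and filament cross-linkers had large shares in both directions. A share near the 4.15% higher or the 1.43% lower of all genes is not a result about a list.

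**Figure D2:**
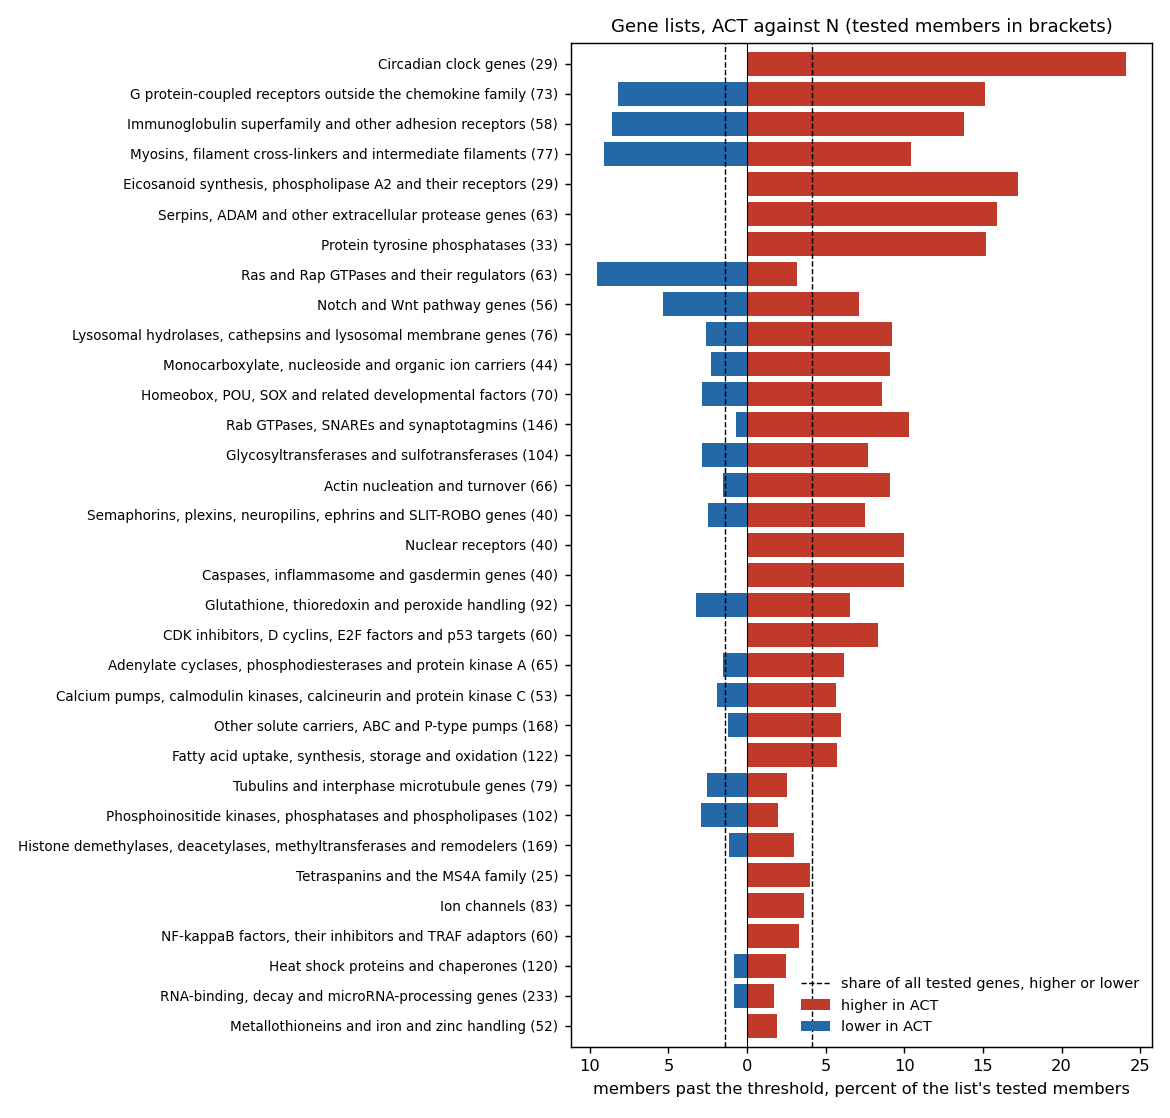
Bars give the percentage of each list's tested members (numbers in brackets) that were higher (red, right) or lower (blue, left) in ACT, and dashed lines give the shares over all genes, 4.15% and 1.43%. The clock list reaches 24.1% higher with 0 members lower, while metal handling, RNA-binding and chaperone lists stay under the dashed line on the right.

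Myosins and cross-linkers of the actin cortex changed in both directions, with some members near 0 in N and higher in ACT and others abundant in N and lower in ACT. Their list also holds intermediate filament genes. Of its 77 measured members, 8 rose (10.4%) and 7 fell (9.09%), with a median log2 fold change of 0.13. Myo1f, an unconventional myosin that links membrane to actin in leukocytes, was at 1.17 and 0.89 TPM in N and 57.1 and 44.7 TPM in ACT. Ahnak (chromosome 19, 8989284 to 9076914, plus strand), a giant scaffold that supports calcium entry in T cells, was at 16.4 and 21.2 TPM in N and 171 and 205 TPM in ACT. Lpxn, a paxillin-like adaptor at adhesion sites, was at 13.7 and 11.7 TPM in N and 68.4 and 62.6 TPM in ACT. Neither ACT library of these 3 overlapped N, and all were steady (Myo1f, log2 fold change 4.67 ± 0.27 SE, adjusted p = 0.000101; Ahnak, 3.26, adjusted p = 0.000101; Lpxn, 2.28, adjusted p = 0.000914). The abundant bundling protein gene Lcp1, L-plastin, also rose (0.85). On the other side Actn1, an alpha-actinin that cross-links actin at contacts, was at 149 and 124 TPM in N and 34.9 and 31.4 TPM in ACT and was steady (log2 fold change -2.00 ± 0.18 SE, adjusted p = 0.000774). Myo10, Cnn3, Macf1, Pdlim1, Pdlim4 and Sptan1 fell as well, so the unconventional myosins Myo1f and Myo10 went opposite ways. In the list of actin nucleation and turnover, 6 of 66 rose (9.09%) and 1 fell (1.52%), median 0.26. The genes that rose were Abi2, Coro2a, Hcls1, Cap2, Capg and Wipf1, by 0.62 to 3.17, and 0 of them were steady. Ssh2, a slingshot phosphatase that activates the filament-severing protein cofilin, was the member that fell, at 294 and 302 TPM in N and 109 and 127 TPM in ACT (log2 fold change -1.33 ± 0.14 SE, adjusted p = 0.0017), and it was steady. Of 79 tubulin and microtubule genes, 2 rose (Mapre2 and Dynlt3) and 2 fell (Cep97 and Tuba1a), shares of 2.53% each way, with a median of -0.01 and 0 steady. Counts depended on single libraries, and the called members were, without N replicate 1 and then without N replicate 2, 4 and 8 for the cross-linker list, 3 and 2 for the nucleation list and 1 and 0 for the microtubule list, and also 9 for the cross-linker list with ACT replicate 1 left out and 2 for the microtubule list with either ACT_IL21 library left out. Calls of single genes ended with either N library left out for Cap2, Capg, Cep97, Cnn3, Dynlt3, Lcp1, Macf1, Myo10, Sptan1, Tuba1a and Wipf1 (adjusted p up to 0.276), with N replicate 1 left out for Coro2a, Pdlim1 and Pdlim4 (adjusted p up to 0.202), with N replicate 2 left out for Abi2, Hcls1 and Mapre2 (adjusted p up to 0.131), and with an ACT or ACT_IL21 library left out for Capg, Dynlt3, Pdlim1, Sptan1, Tuba1a and Wipf1.

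Regulators of Ras and Rap, small GTPases that control integrin adhesion and growth signalling, had more members lower than higher. Of 63 Ras and Rap genes 2 rose (3.17%) and 6 fell (9.52%), median -0.05. Regulators of Rac, a small GTPase that steers the actin network, are given as single genes. Tiam1 (chromosome 16, 89787111 to 90143769, minus strand), an exchange factor that activates Rac, was at 8.41 and 6.71 TPM in N and 48.9 and 53.6 TPM in ACT (log2 fold change 2.62 ± 0.21 SE, adjusted p = 0.000571). Chn2, a Rac-inactivating chimaerin, was at 5 and 5.55 TPM in N and 35.9 and 39.9 TPM in ACT. An activator and an inactivator of Rac thus rose side by side. Arhgap18, a GTPase-activating protein, was at 15.1 and 14.1 TPM in N and 62.5 and 77.5 TPM in ACT, and these 3 were steady. In the Ras and Rap list, Rapgef4 (Epac2, a cyclic AMP-driven activator of Rap) was at 104 and 118 TPM in N and 38.4 and 32.1 TPM in ACT and was steady (log2 fold change -1.64 ± 0.18 SE, adjusted p = 0.00182). Rasgrp2, the calcium- and diacylglycerol-driven activator of Rap1 in lymphocytes, fell (-1.31), as did Rapgef6 (-0.80). Rap1gap2, which switches Rap off, rose by 2.20, and Rin2, a Rab5 exchange factor, by 2.82. Rasa3, a GTPase-activating protein of Ras and Rap, fell (-0.84), so inactivators did not all move alike. The remaining members that fell were Rassf3 (-1.44) and Arl4c (-0.86). In refits the called members were, without N replicate 1 and then without N replicate 2, 1 and 2 for the Ras list, and also 5 for the Ras list with ACT replicate 1 or either ACT_IL21 library left out. Individual calls were lost with either N library left out for Arl4c, Rap1gap2, Rapgef6, Rasa3, Rassf3 and Rin2, and with N replicate 1 left out for Rasgrp2. Leaving out an ACT or ACT_IL21 library ended the calls of Rap1gap2, Rapgef6, Rasa3 and Rassf3.

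Most vesicle traffic genes did not pass the test, and nearly all that did were higher. Of 146 Rab GTPases, SNAREs, synaptotagmins and related genes, 15 rose (10.3%), 5 of them steady, and 1, Rab3ip, fell (0.685%), with a median of 0.14. Several of those that rose serve secretory lysosomes. Stx11, the syntaxin that T and natural killer cells need to release cytotoxic granules, was at 0.6 and 1.24 TPM in N and 30 and 21.9 TPM in ACT (log2 fold change 3.81 ± 0.35 SE, adjusted p = 0.000914). Lyst, the protein of Chediak-Higashi syndrome that sets lysosome size, was at 38.6 and 37.2 TPM in N and 114 and 110.0 TPM in ACT (1.54, adjusted p = 0.00226). Rab8b, a GTPase of transport to the plasma membrane, was at 59.7 and 67.1 TPM in N and 192 and 204 TPM in ACT (1.63, adjusted p = 0.000844). Stx11 was near 0 in N, whereas Lyst and Rab8b were already expressed there and rose by less. Sytl3 (2.93) and Rab19 (1.86) were also steady, and Sytl2, Vamp8 and Stxbp2, partners in granule docking and fusion, rose by 0.89 to 1.33. In the lysosome list 7 of 76 rose (9.21%) and 2 fell (2.63%), median 0.26. Atp6v0d2, a subunit of the proton pump that acidifies lysosomes, was at 0.18 and 0.12 TPM in N and 17.7 and 16.7 TPM in ACT, and Ctsw, a cathepsin of cytotoxic lymphocytes, at 20.97 and 17.1 TPM in N and 130.3 and 97.2 TPM in ACT. Cst7, cystatin F, which inhibits cathepsins inside granules, was at 12.2 and 7.7 TPM in N and 71.3 and 66.2 TPM in ACT. Protease and inhibitor thus rose together, and all 3 were steady (log2 fold changes 3.98, 2.51 and 2.70). The members that fell, Npc2 (-1.07) and Lipa (-0.94), both handle lysosomal cholesterol. The natural killer and NKT markers summed to 323 and 350.0 TPM in these ACT libraries against 51.0 and 55.9 TPM in N. Among them the granule genes Gzma and Prf1 did not pass. Gzma was at 0.83 and 2.67 TPM in N and 3.94 and 3.33 TPM in ACT. Prf1 was at 7.27 and 7.93 TPM in N and 0.92 and 5.76 TPM in ACT. The part of these markers was not tested. Members called were, without N replicate 1 and then without N replicate 2, 6 and 6 for the traffic list and 3 and 4 for the lysosome list. Single calls ended with either N library left out for Lipa, Rab3ip, Stxbp2 and Sytl2 (adjusted p up to 0.296), with N replicate 1 left out for Npc2 and Vamp8 (adjusted p up to 0.0997), and with an ACT or ACT_IL21 library left out for Stxbp2 and Sytl2.

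Some genes of extracellular proteases, of their inhibitors and of caspases rose, and 0 in these lists fell. Several that rose were near 0 in N and could hardly fall on this scale. Among them were Adam12 at 0 and 0.04 TPM in N, Cpd at 0.35 and 0.46 TPM and Adam8 at 0.82 and 0.33 TPM. In the list of serpins, ADAM and other extracellular protease genes, 10 of 63 rose (15.9%) and 4 were steady, median 0.24. Serpina3g, an inhibitor of cathepsin activity in T cells, was at 0.47 and 0.52 TPM in N and 53.2 and 48.9 TPM in ACT (log2 fold change 5.12 ± 0.33 SE, adjusted p = 0.000158), and its neighbour Serpina3f at 0.22 and 0 TPM in N and 21.4 and 27.8 TPM in ACT. Adam19, a membrane protease that sheds growth factors, was at 21.1 and 18.1 TPM in N and 152 and 107 TPM in ACT (log2 fold change 2.65 ± 0.21 SE, adjusted p = 0.000547). Serpinb6b, an intracellular serpin, rose by 2.72. Adam8, Adam12, Mmp9, Cpd, St14 and Tmprss13 rose too and were not steady. Among caspase, inflammasome and gasdermin genes 4 of 40 rose (10%), median 0.44. Casp1, which processes cytokines of the interleukin-1 family, was at 2.16 and 6.82 TPM in N and 39 and 69.7 TPM in ACT (log2 fold change 3.42 ± 0.44 SE, adjusted p = 0.00375). Casp4, its partner that senses cytosolic lipopolysaccharide, was at 4.39 and 7.09 TPM in N and 31.2 and 49.8 TPM in ACT, and both were steady. The called members numbered, without N replicate 1 and then without N replicate 2, 4 and 5 for the protease list and 2 and 3 for the caspase list, and also 5 for the protease list with ACT replicate 1 left out. Calls of single genes ended with either N library left out for Adam8, Cpd, Mmp9, St14 and Tmprss13. Adam12 lost its call with N replicate 1 left out. Leaving out an ACT or ACT_IL21 library ended the calls of Adam8, Cpd, St14 and Tmprss13. With either ACT library left out, Mmp9 no longer entered the test.

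**Figure D3:**
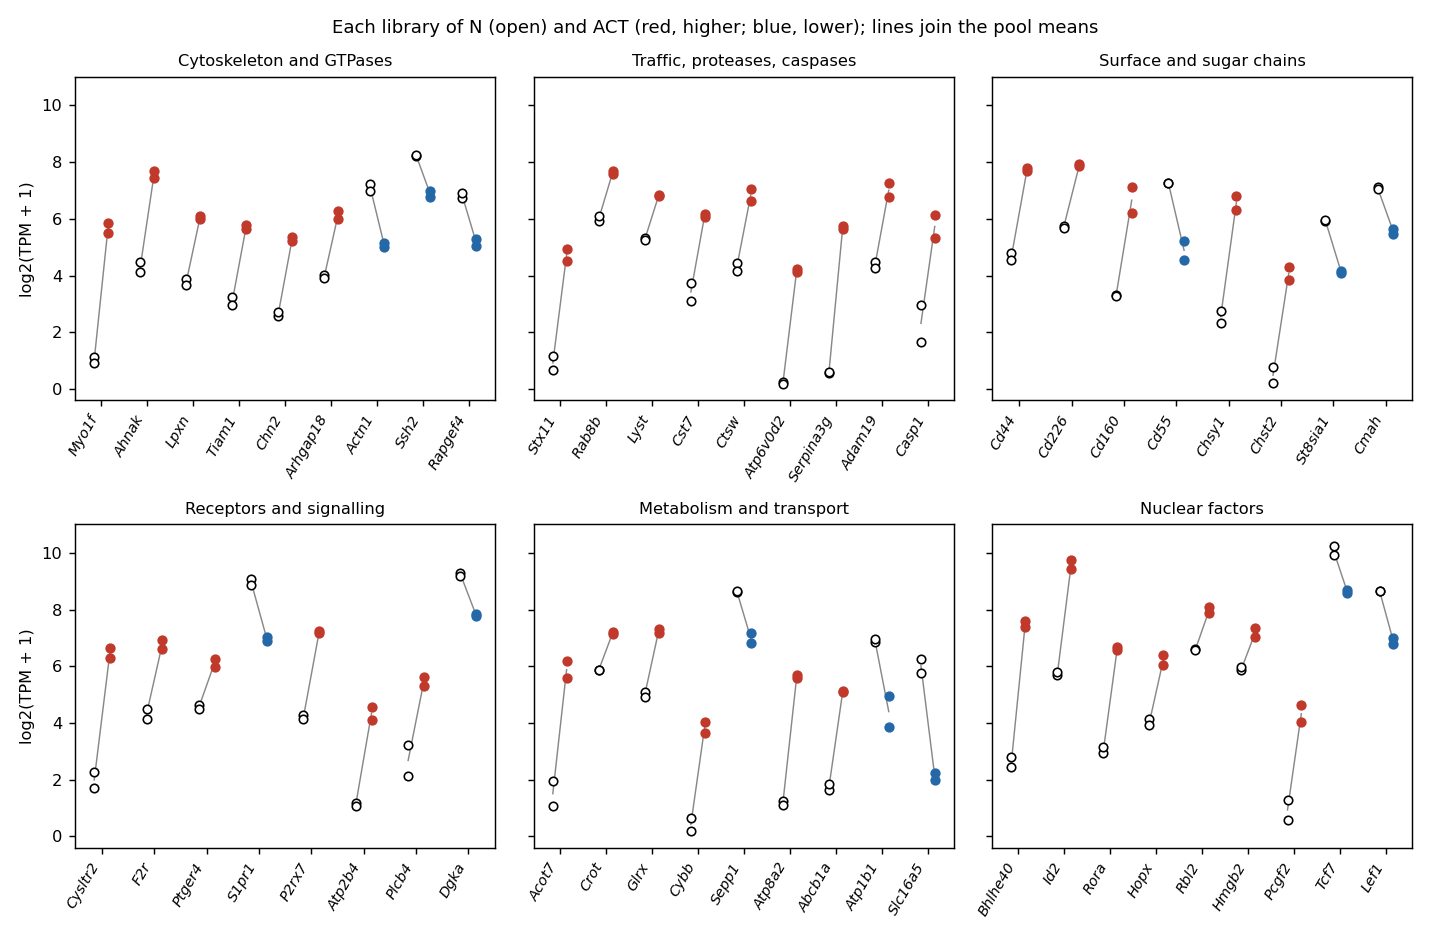
Each column is a gene, with the 2 N libraries as open circles and the 2 ACT libraries as filled circles (red where higher, blue where lower) in log2(TPM + 1), and lines join the pool means. In all panels the filled and open circles of a gene do not overlap, with Myo1f, Stx11 and Serpina3g near 0 in N and Tcf7 and S1pr1 high in N and lower in ACT.

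Adhesion receptors were among the lists with large shares in both directions. Of 58 immunoglobulin superfamily and other adhesion receptor genes, 8 rose (13.8%) and 5 fell (8.62%), median 0.12. Cd44, the hyaluronan receptor of memory cells, was at 26.9 and 22.3 TPM in N and 221 and 207 TPM in ACT (log2 fold change 3.07 ± 0.17 SE, adjusted p = 7.3e-05). Cd226, an activating receptor for nectin-like ligands, was at 52.5 and 50.6 TPM in N and 232 and 246 TPM in ACT (log2 fold change 2.19 ± 0.15 SE, adjusted p = 0.000268). Cd160, a receptor of HVEM found on natural killer and some T cells, was at 8.89 and 8.66 TPM in N and 138 and 72.4 TPM in ACT. These 3 and Cd200 (1.53), a ligand that restrains myeloid cells, were steady. Cd55, which protects cells from complement, fell from 153 and 154 TPM to 22.6 and 36.5 TPM (log2 fold change -2.38 ± 0.30 SE, adjusted p = 0.00345), and was steady. Pecam1, Treml2 and Cd302 fell too. Among 25 tetraspanin and MS4A genes only Cd82 passed, higher by 1.81 (4% of the list, near the share of all genes). Among 40 semaphorin, plexin, neuropilin, ephrin, SLIT-ROBO and related genes 3 rose (7.5%) and 1 fell (2.5%), median -0.04. The member that fell was Amigo2 (-3.05). Nrp1, a semaphorin receptor that thymus-derived regulatory cells carry, was at 6.91 and 6.84 TPM in N and 39.9 and 39.3 TPM in ACT (log2 fold change 2.37 ± 0.22 SE, adjusted p = 0.000966), and Ntng2, a netrin-G, rose by 2.64. Regulatory markers summed to 121 and 156 TPM in N and to 553 and 701 TPM in ACT beside these values. Foxp3 among them was at 22.2 and 19.4 TPM in N and 65.4 and 51.9 TPM in ACT. The part of these markers in the rise of Nrp1 was not tested. In refits the called members were, without N replicate 1 and then without N replicate 2, 6 and 7 for the adhesion list, 2 and 2 for the guidance list and 1 and 1 for the tetraspanin list, and also 2 for the tetraspanin list with ACT replicate 2 left out. Individual calls were lost with either N library left out for Amigo2, Cd302, Pecam1 and Plxnc1 (adjusted p up to 0.281), with N replicate 1 left out for Treml2 (adjusted p up to 0.066), and with an ACT or ACT_IL21 library left out for Cd302 and Plxnc1.

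Enzymes that build surface sugars changed in both directions. Of 104 glycosyltransferase and sulfotransferase genes, 8 rose (7.69%) and 3 fell (2.88%), median 0.13. Chsy1, which extends chondroitin chains, was at 4.07 and 5.8 TPM in N and 112 and 79.2 TPM in ACT (log2 fold change 4.02 ± 0.30 SE, adjusted p = 0.000398), and Chst2, which adds sulfate to N-acetylglucosamine in selectin ligands, was at 0.7 and 0.15 TPM in N and 18.7 and 13.3 TPM in ACT. St3gal6, an alpha-2,3-sialyltransferase, rose by 1.85, and Gcnt1, the core-2 branching enzyme of selectin ligands on activated T cells, by 2.93. In the opposite direction St8sia1 (60.4 and 61.2 TPM in N and 17.1 and 16.1 TPM in ACT) and St8sia6 (-1.84), which add a further sialic acid in alpha-2,8 linkage, fell. St8sia4, which makes polysialic acid by the same linkage, rose by 0.88, so the alpha-2,8 enzymes did not all move alike. Cmah, which converts sialic acid to its glycolyl form in mice, was at 140.0 and 131 TPM in N and 43.3 and 48.6 TPM in ACT (log2 fold change -1.54 ± 0.16 SE, adjusted p = 0.00146). Chsy1, Chst2, St3gal6, St8sia1, St8sia6 and Cmah were steady. Members called were, without N replicate 1 and then without N replicate 2, 6 and 7 for the list, and also 7 for the list with ACT replicate 1 left out. Single calls ended with either N library left out for St8sia4 (adjusted p up to 0.281), with N replicate 1 left out for Gcnt1 (adjusted p up to 0.0503), and with an ACT or ACT_IL21 library left out for St8sia4.

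G protein-coupled receptors outside the chemokine family had members that rose and members that fell, while most did not pass the test. Of 73 measured, 11 rose (15.1%) and 6 fell (8.22%), median 0.46. Cysltr2, a receptor for cysteinyl leukotrienes, was at 2.28 and 3.8 TPM in N and 99.6 and 77.6 TPM in ACT (log2 fold change 4.49 ± 0.36 SE, adjusted p = 0.000518). F2r, the thrombin receptor PAR1, was at 21.3 and 16.6 TPM in N and 122 and 95.7 TPM in ACT. Ptger4, a prostaglandin E2 receptor that raises cyclic AMP, was at 23.7 and 21.2 TPM in N and 74.8 and 62.5 TPM in ACT, and with Lpar6 (1.34), a lysophosphatidic acid receptor, these 4 were steady. The acid sensor Gpr65 (1.27) and another prostaglandin E2 receptor, Ptger2 (2.06), rose as well, as did Adora2a, the adenosine receptor (1.94). The receptors that fell included S1pr1, which leads T cells out of lymphoid organs, at 536 and 463 TPM in N and 129 and 118 TPM in ACT (log2 fold change -2.00 ± 0.15 SE, adjusted p = 0.000328). Vipr1 (-2.36), for vasoactive intestinal peptide, Calcrl (-1.29), F2rl1 (-1.36), Gpr146 (-2.19) and Gpr183 (-0.95), for oxysterols, fell too. The related receptor genes F2r and F2rl1 thus went opposite ways. In the eicosanoid list, which shares Cysltr2, Ptger4 and Ptger2 with the receptors, 5 of 29 rose (17.2%), 0 fell and the median was 0.3. Its other members that rose were Anxa1 (2.84), annexin A1, which restrains phospholipase A2, and Pla2g16 (0.98). The called members numbered, without N replicate 1 and then without N replicate 2, 7 and 9 for the receptor list and 2 and 2 for the eicosanoid list, and also 11 for the receptor list with ACT replicate 1 left out. Calls of single genes ended with either N library left out for Adora2a, Anxa1, Calcrl, Gpr146, Gpr183, Gpr65, Pla2g16 and Ptger2 (adjusted p up to 0.275), with N replicate 1 left out for F2rl1 and Vipr1 (adjusted p up to 0.0723), and with an ACT or ACT_IL21 library left out for Adora2a, Anxa1, Calcrl, Gpr183, Gpr65 and Pla2g16.

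Signalling families downstream of such receptors gave shares nearer to those of all genes, apart from the tyrosine phosphatases. P2rx7, the ATP-gated channel that makes regulatory and tissue-resident T cells sensitive to extracellular ATP and NAD, was at 18.5 and 16.7 TPM in N and 149.8 and 145 TPM in ACT (log2 fold change 2.996 ± 0.18 SE, adjusted p = 0.000101) and was the steady member of the ion channel list. In that list 3 of 83 rose (3.61%) and 0 fell, median 0.03, a share near that of all genes. The others were the magnesium channel Trpm6 (3.16) and the potassium channel Kcnq5 (1.96). Among calcium pumps, calmodulin kinases, calcineurin and protein kinase C genes 3 of 53 rose (5.66%) and 1 fell (1.89%), median 0.28. Atp2b4, a plasma membrane pump that expels calcium, was at 1.27 and 1.11 TPM in N and 22.7 and 16.3 TPM in ACT (log2 fold change 3.21 ± 0.35 SE, adjusted p = 0.00182) and was steady, and its relative Atp2b1 rose by 1.01. Rcan3, an inhibitor of calcineurin, fell (-0.92). Of 65 cyclic AMP and G protein subunit genes 4 rose (6.15%) and 1 fell (1.54%), median 0.11, with 0 steady. Those that rose included the G protein subunit genes Gna15 (2.46) and Gng2 (1.23). The phosphodiesterases were split, with Pde7a higher (0.88) and Pde4d lower (-1.11). In the phosphoinositide list 2 of 102 rose (1.96%) and 3 fell (2.94%), median 0.07. Dgka, the kinase that removes diacylglycerol and damps T cell receptor signals, fell from 631 and 579.8 TPM to 216 and 227 TPM (log2 fold change -1.45 ± 0.14 SE, adjusted p = 0.00102). Plcb4, a phospholipase that makes diacylglycerol, rose to 38.1 and 48.2 TPM from 3.4 and 8.29 TPM (2.78), so a maker and a remover of the same lipid moved in opposite directions, and both were steady. Pik3ip1, an inhibitor of PI 3-kinase, fell (-1.60). Tyrosine phosphatases had 5 of 33 higher (15.2%) and 0 lower, median 0.44, but 0 were steady. They were Ptprj (3.03), Ptpn13, Ptprv, Cdc14a and Ptpn22 (0.73), the last a brake on T cell receptor signalling. In refits the called members were, without N replicate 1 and then without N replicate 2, 1 and 2 for the channel list, 1 and 1 for the calcium list, 0 and 1 for the cyclic AMP list, 2 and 2 for the phosphoinositide list and 0 and 2 for the phosphatase list, and also 5 for the channel list with ACT replicate 2 left out, 3 for the cyclic AMP list with ACT replicate 1 or either ACT_IL21 library left out, 1 for the phosphatase list with ACT replicate 1 left out, 3 for the phosphatase list with ACT replicate 2 left out and 2 for the phosphatase list with either ACT_IL21 library left out. Individual calls were lost with either N library left out for Atp2b1, Cdc14a, Gna15, Kcnq5, Pde4d, Pde7a, Pik3ip1, Ptpn13, Ptpn22 and Rcan3. Gng2, Ptprj, Ptprv and Trpm6 lost theirs with N replicate 1 left out. Leaving out an ACT or ACT_IL21 library ended the calls of Atp2b1, Cdc14a, Gna15, Pde7a, Pik3ip1, Ptpn13, Ptpn22, Ptprv and Rcan3.

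Among metabolic and transport genes, single members moved far while most of each list did not pass. Of 122 fatty acid genes 7 rose (5.74%) and 0 fell, median 0.12. Acot7, which splits acyl-CoA, was at 2.83 and 1.1 TPM in N and 71.7 and 46.6 TPM in ACT (log2 fold change 4.38 ± 0.37 SE, adjusted p = 0.000651). Crot, which passes shortened fatty acids from peroxisomes to carnitine, was at 57.3 and 58.04 TPM in N and 141 and 146 TPM in ACT (log2 fold change 1.30 ± 0.16 SE, adjusted p = 0.00346). With Abhd17c (1.91), which removes palmitate from proteins, they were the steady members. Glutathione, thioredoxin and peroxide genes had 6 of 92 higher (6.52%) and 3 lower (3.26%), median 0.07. Glrx, glutaredoxin, was at 33.1 and 29.4 TPM in N and 157 and 144 TPM in ACT (log2 fold change 2.24 ± 0.16 SE, adjusted p = 0.00032), and Cybb, the catalytic subunit of the phagocyte NADPH oxidase, at 0.14 and 0.58 TPM in N and 11.6 and 15.6 TPM in ACT. Sepp1, selenoprotein P, fell from 394 and 402 TPM to 112 and 144 TPM (-1.64), and these 3 were steady. The thioredoxin pair Txn1 (0.76) and Txnrd1 (1.17) rose and their inhibitor Txnip (-0.81) fell. In the list of other solute carriers, ABC and P-type pumps 10 of 168 rose (5.95%) and 2 fell (1.19%), median 0.07. Atp8a2, a phospholipid flippase, was at 1.37 and 1.17 TPM in N and 50.4 and 46.7 TPM in ACT (log2 fold change 4.45 ± 0.35 SE, adjusted p = 0.000509), and Abcb1a, the multidrug efflux pump, at 2.08 and 2.57 TPM in N and 33.5 and 33 TPM in ACT (log2 fold change 3.37 ± 0.30 SE, adjusted p = 0.000854). The members that fell were both beta subunits of the sodium pump, Atp1b1 at 116 and 123.3 TPM in N and 13.5 and 29.7 TPM in ACT and Atp1b3 at 1601 and 1813 TPM in N and 685 and 823 TPM in ACT (log2 fold changes -2.51 and -1.18), and all 4 were steady. Of 44 monocarboxylate, nucleoside and organic ion carriers 4 rose (9.09%) and 1 fell (2.27%), median 0.17. Slc16a5, a monocarboxylate carrier whose gene overlaps the antisense gene Gm11695, fell (-3.91), and with unknown strand the reads of the 2 genes cannot be told apart. Its relatives Slc16a6 (1.52) and Slc16a10 (1.499) rose. Of 52 metallothionein, iron and zinc genes only the zinc importer Slc39a6 passed (1.32), 1.92% of the list. Members called were, without N replicate 1 and then without N replicate 2, 4 and 4 for the fatty acid list, 3 and 4 for the redox list, 6 and 6 for the pump list, 1 and 1 for the monocarboxylate list and 0 and 0 for the metal list, and also 4 for the fatty acid list with ACT replicate 1 left out, 2 for the monocarboxylate list with ACT replicate 1 or either ACT_IL21 library left out, 1 for the monocarboxylate list with ACT replicate 2 left out and 2 for the metal list with ACT replicate 2 left out. Single calls ended with either N library left out for Slc16a10, Slc16a6, Slc39a6, Txn1, Txnip and Txnrd1 (adjusted p up to 0.306), and with an ACT or ACT_IL21 library left out for Slc16a10, Slc16a6, Txn1, Txnip and Txnrd1.

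The circadian clock list had the highest share of members that rose of any list. Of 29 genes 7 rose (24.1%), 0 fell and the median was 0.6. Bhlhe40, a repressor that both answers the clock and controls T cell cytokines, was at 4.49 and 5.94 TPM in N and 194 and 165 TPM in ACT (log2 fold change 4.86 ± 0.22 SE, adjusted p = 3.44e-05). Id2, an inhibitor of E proteins, was at 50.7 and 54.9 TPM in N and 860.1 and 693 TPM in ACT (log2 fold change 3.85 ± 0.18 SE, adjusted p = 3.93e-05), and Rora, which activates Arntl, at 6.63 and 7.9 TPM in N and 101 and 95.1 TPM in ACT (log2 fold change 3.58 ± 0.21 SE, adjusted p = 0.000101). These 3 were steady, and each also has a textbook part in effector T cells outside the clock. The core clock genes Arntl (1.48), Npas2 (2.22) and Nr1d2 (1.10) rose, and none of these 3 was steady. Nuclear receptors, which share Rora and Nr1d2 among others with the clock list, had 4 of 40 higher (10%) and 0 lower, median 0.05, among them Rxra (1.76). The called members numbered, without N replicate 1 and then without N replicate 2, 3 and 3 for the clock list and 1 and 1 for the nuclear receptor list, and also 4 for the clock list with ACT replicate 1 left out and 2 for the nuclear receptor list with ACT replicate 1 or either ACT_IL21 library left out. Calls of single genes ended with either N library left out for Arntl, Npas2, Nr1d2 and Rxra (adjusted p up to 0.303), and with an ACT or ACT_IL21 library left out for Arntl, Npas2, Nr1d2 and Rxra.

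Other transcription factor families had a few strong members. In the homeobox, POU, SOX and related list 6 of 70 rose (8.57%) and 2 fell (2.86%), median 0.07. Hopx, a homeodomain protein of effector and tissue-resident lymphocytes, was at 16.7 and 14.1 TPM in N and 83.8 and 64.3 TPM in ACT (log2 fold change 2.19 ± 0.23 SE, adjusted p = 0.00166). Ikzf2 (Helios, 2.98) and Ikzf3 (Aiolos, 1.43), Ikaros family factors, also rose, and these 3 were steady. Of Notch and Wnt genes 4 of 56 rose (7.14%) and 3 fell (5.36%), median 0.03. Tcf7, which acts with Lef1 at the end of the Wnt pathway, fell from 1208 and 961 TPM to 409 and 378 TPM (-1.45, adjusted p = 0.00166). Rnf43, which removes Wnt receptors from the surface, rose by 1.62, and Rbpj, the Notch effector, by 0.84. Of 169 chromatin genes 5 rose (2.96%) and 2 fell (1.18%), median -0.08. Hmgb2, a DNA-bending protein, was at 56.7 and 61.8 TPM in N and 129 and 163 TPM in ACT (log2 fold change 1.28 ± 0.17 SE, adjusted p = 0.00434), and Pcgf2, a Polycomb subunit, at 0.48 and 1.46 TPM in N and 23.5 and 15.4 TPM in ACT (log2 fold change 3.39 ± 0.44 SE, adjusted p = 0.00386). Prdm1 (Blimp-1, 2.19) was the other steady member. Of 60 CDK inhibitor, D cyclin, E2F and p53 target genes 5 rose (8.33%) and 0 fell, median 0.2. Rbl2, p130, a retinoblastoma relative that holds resting cells out of division, was at 96.9 and 94.6 TPM in N and 272 and 236 TPM in ACT (log2 fold change 1.39 ± 0.15 SE, adjusted p = 0.00166). Cdk6 (1.17) and Ccnd2 (0.75), which drive entry into the cell cycle, and their inhibitor Cdkn2c (2.08) rose with it. In refits the called members were, without N replicate 1 and then without N replicate 2, 4 and 4 for the homeobox list, 2 and 2 for the Notch and Wnt list, 3 and 3 for the chromatin list and 2 and 2 for the CDK list, and also 5 for the homeobox list with ACT replicate 1 or either ACT_IL21 library left out, 3 for the Notch and Wnt list with ACT replicate 2 left out, 4 for the Notch and Wnt list with either ACT_IL21 library left out, 4 for the chromatin list with either ACT_IL21 library left out and 3 for the CDK list with either ACT_IL21 library left out. Individual calls were lost with either N library left out for Ccnd2, Cdk6, Rbpj and Rnf43 (adjusted p up to 0.324), with N replicate 2 left out for Cdkn2c (adjusted p up to 0.0995), and with an ACT or ACT_IL21 library left out for Ccnd2, Cdk6 and Rbpj.

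The remaining 3 lists stayed below the share of all genes in both directions. NF-kappaB genes had 2 of 60 higher, Nfkbia (0.91) and Tab2 (0.63), or 3.33%, and 0 lower, median 0.14. Of 120 heat shock and chaperone genes 3 rose (2.5%) and 1 fell (0.833%), median 0.05. Those that rose included Hsp90b1 (0.95) and Hspa5 (0.71), the main chaperones of the endoplasmic reticulum, and the prolyl isomerase Ppia fell (-1.03). Of 233 RNA-binding, decay and microRNA-processing genes 4 rose (1.72%) and 2 fell (0.858%), median -0.01. Ybx3, a cold-shock domain protein, was at 10.6 and 15.4 TPM in N and 58.1 and 52.5 TPM in ACT and Ddx43, a helicase, at 2.76 and 2.97 TPM in N and 23.5 and 27.8 TPM in ACT, and both were steady. Members called were, without N replicate 1 and then without N replicate 2, 0 and 0 for the NF-kappaB list, 0 and 1 for the chaperone list and 2 and 2 for the RNA list, and also 0 for the NF-kappaB list with ACT replicate 2 or either ACT_IL21 library left out, 2 for the chaperone list with ACT replicate 2 or ACT_IL21 replicate 1 left out, 1 for the chaperone list with ACT_IL21 replicate 2 left out and 3 for the RNA list with ACT replicate 1 left out. Single calls ended with either N library left out for Hspa5, Nfkbia, Ppia and Tab2 (adjusted p up to 0.283), with N replicate 1 left out for Hsp90b1 (adjusted p up to 0.0844), and with an ACT or ACT_IL21 library left out for Hspa5, Nfkbia, Ppia and Tab2.

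Several strong steady changes lay outside every list, with provisional symbols and antigen receptor segments left out here. Zfp683 (Hobit), a transcription factor of tissue-resident and NKT cells, was at 1.73 and 0.87 TPM in N and 120.0 and 78.2 TPM in ACT (log2 fold change 5.44 ± 0.38 SE, adjusted p = 0.000254). Plac8, a small cysteine-rich protein of activated leukocytes, was at 0.68 and 0.46 TPM in N and 85.8 and 47.7 TPM in ACT (log2 fold change 5.38 ± 0.65 SE, adjusted p = 0.003). Xcl1, the chemokine that draws cross-presenting dendritic cells, was at 2.06 and 2.08 TPM in N and 195 and 228 TPM in ACT (log2 fold change 6.11 ± 0.51 SE, adjusted p = 0.000642). Beside the NKT-linked gene Zfp683, Zbtb16, the lineage factor of NKT cells, was at 0 and 0.18 TPM in N and 40.05 and 27.31 TPM in ACT, and its part was not tested. Ccr2, Ccr4, Cxcr3, Klrg1, Klrb1c, Nkg7, Ifng, Il4 and S100a6 were the other genes of this kind that rose. Igfbp4, a binding protein of insulin-like growth factors, fell from 101 and 103 TPM to 15.8 and 12.3 TPM (log2 fold change -2.79 ± 0.25 SE, adjusted p = 0.000814). Tsc22d3 (GILZ), a glucocorticoid-induced leucine zipper protein, fell from 109 and 97.8 TPM to 20.9 and 11.7 TPM (log2 fold change -2.64 ± 0.29 SE, adjusted p = 0.00204). Tgfbr3, a co-receptor for TGF-beta, fell from 53.99 and 45.5 TPM to 12.1 and 11.6 TPM (-1.98). In all 3 the ACT libraries lay below both N libraries. Nsg2 (-1.40), Dapl1 (-1.83), Scml4 (-1.38), Cd2ap (-1.48), an adaptor that links CD2 to actin, Bach2 (-1.67), a repressor of effector programmes, and Klf2 (-1.69), an activator of S1pr1, fell too. Ly6c1 (-2.81), Ccr7 (-2.22) and the pyruvate dehydrogenase kinase gene Pdk1 (-1.54) were also among these genes that fell.

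Genes that rose often lay beside another gene that rose. Of 530 higher genes with a position, 110 (20.8%) had a tested neighbour, the next tested gene on the chromosome, that was also higher. Of genes not called higher, 7.72% had a higher neighbour. Of 170 lower genes 17 (10%) had a lower neighbour, against 2.66% of genes not called lower. Neighbours can share reads where they overlap or are near copies, so these shares are descriptions without a test. There were 49 runs of adjacent higher genes, 41 of them pairs, and 8 runs of lower genes, and 7 runs in all held genes that overlap.

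The interleukin 18 and 33 receptor genes on chromosome 1 formed a run of 3. Il1rl1, the interleukin 33 receptor, was at 0.65 and 0.42 TPM in N and 8.69 and 13 TPM in ACT. Il18r1 was at 44.6 and 54.7 TPM in N and 159 and 159 TPM in ACT and its partner Il18rap at 2.55 and 4.26 TPM in N and 102 and 101 TPM in ACT. The partner chains thus started from different levels in N, and Casp1, which processes interleukin 18, was also higher. On chromosome 9 the chemokine receptor genes Ccr3 and Ccr2 were neighbours, with Ccr3 listed at 0 in both N libraries and at 7.13 and 6.18 TPM in ACT. On chromosome 3 the S100 genes S100a4, S100a6, S100a11 and S100a10 were adjacent among tested genes, although S100a11 lies far from S100a6. S100a10 was at 189 and 183 TPM in N and 783 and 617 TPM in ACT, the most abundant of the 4 in N on the TPM scale, and S100a11 at 48.5 and 75.6 TPM in N and 444 and 378 TPM in ACT. The collagen-binding integrin genes Itga1 and Itga2 formed a pair on chromosome 13. The longest run held 6 segments of the Tcrg locus, of which Tcrg-C1, Tcrg-C2 and Tcrg-C4 are among the gamma delta markers above, and natural killer receptor genes Klrk1, Klrc2 and Klrc1 formed another. Values of family members such as Bcl2a1b and Bcl2a1d, the Klr genes and the Serpina3 pair are uncertain where reads fit more than 1 of them, which was not measured. Among lower genes Itga6, Pdk1 and Rapgef4 formed a run of 3 on chromosome 2, and Itga6, the laminin receptor chain, was at 325 and 344 TPM in N and 171 and 213 TPM in ACT. Igfbp4 and Ccr7 were neighbours on chromosome 11. Calls in these runs ended with either N library left out for Ccr3, Il1rl1, Itga1, Itga2, Itga6, Klrc1, Klrc2 and Tcrg-C3 (adjusted p up to 0.295), and with an ACT or ACT_IL21 library left out for Ccr3, Il1rl1, Itga1, Itga6, Klrc1 and Tcrg-C3.

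**Figure D4:**
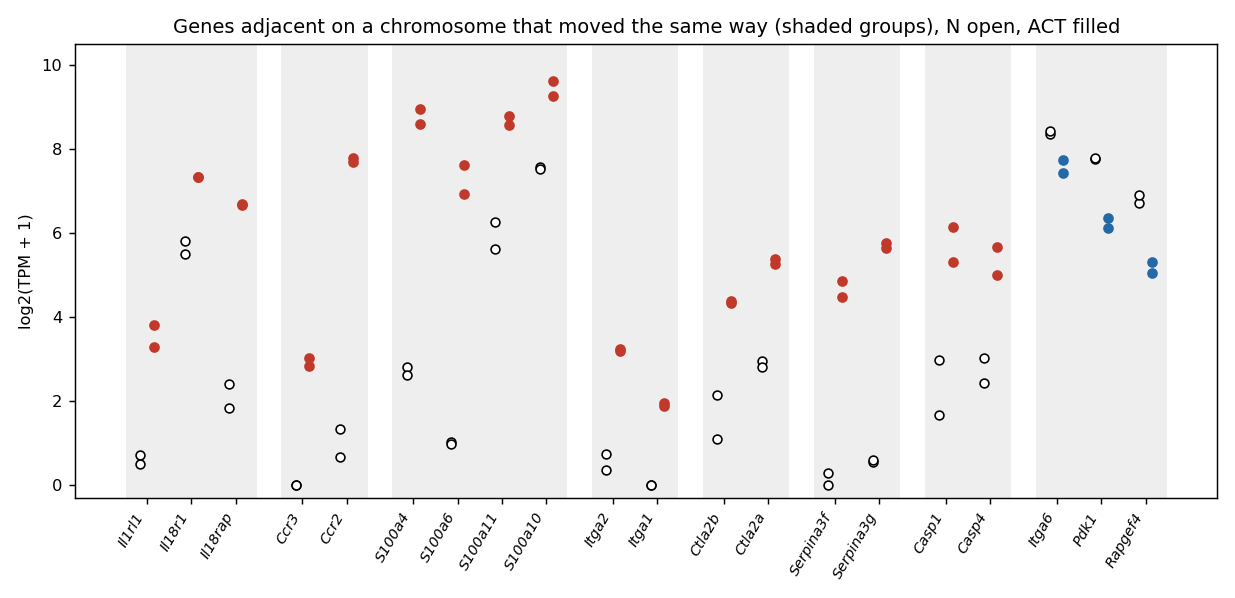
Shaded groups hold genes adjacent among tested genes that moved the same way, with open circles for the 2 N libraries and filled circles for the 2 ACT libraries (red where higher, blue where lower) in log2(TPM + 1). In every group the filled circles lie on 1 side of the open ones, and Ccr3 and Itga1 sit at 0 in N.

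The dependence of the counts on the processing is shown in the plot of calls by setting. The number of calls changed most without an N library.

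**Figure D5:**
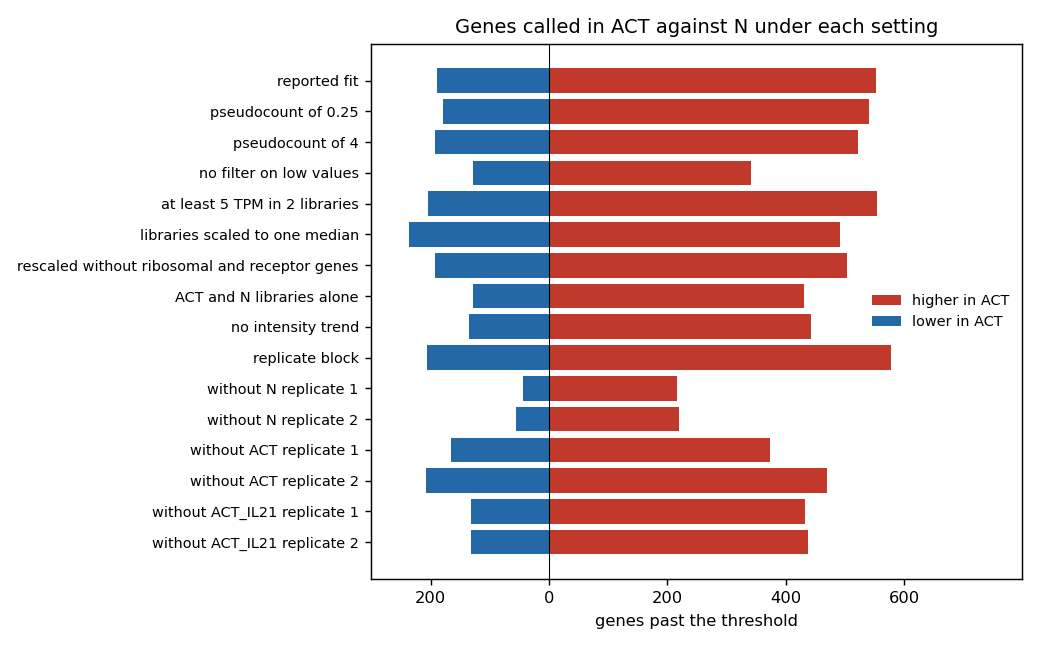
Bars give the number of genes higher (red, right) and lower (blue, left) in ACT under the reported fit and 15 other settings. The bars are shortest without N replicate 1, with 216 higher and 44 lower.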

How the data were processed

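Per the labels' protocols, RNA came from RNeasy extraction and its polyadenylated part was amplified (NuGEN Ovation). The series' design text names the MiSeq as sequencer. Gene-level TPM values were deposited by the authors, with a column for every library. They were made with Trimmomatic, Bowtie and RSEM on GRCm38, per the submitters' processing notes. Tool versions, annotation release and strandedness are not given in the sources here. RSEM divides reads shared by near copies by estimation, amplification can add noise to low values, and TPM keeps no depth, so no counting interval is given.

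The 139 entries with a repeated symbol among 38355 were summed, leaving 38216 symbols. Genes reaching 1 TPM in 2 or more of 6 libraries entered limma (version 3.58.1, R version 4.3.3) as log2(TPM + 1), which understates the change of low genes. All 6 libraries entered 1 model with a term for the pool and an intensity trend (3 residual and 4.841 prior degrees of freedom). Tests were two-sided, with Benjamini-Hochberg adjustment over 13311 genes.

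Members and gene lists were chosen with earlier results of these data known. Lists were described by counts and medians, with no test. Named genes were Icos, Il21, Cd4, S100a4, Cxcr6 and Lef1, and up to 6 members of each list past the threshold. Members steady under leave-one-out came before others, and then those with the smallest p. The 12 largest and 12 smallest steady changes outside the lists were named too. These had at least 10 TPM in the higher pool and no overlap between pools. Provisional symbols, pseudogenes and antigen receptor segments were left out of them. Other genes named, such as those in runs of neighbours, were chosen after their values were seen. A few results that the rule names are not reported here. Positions are from GENCODE M21 (GRCm38). Alternatives changed the pseudocount, filter, scaling, trend, block and libraries used.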

Additional observations from a re-analysis of the deposited data

How the results depend on the processing

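Without a filter on low values, when 18778 genes were tested, 341 genes were higher and 128 lower. Leaving out each library in turn gave 216 to 470 genes higher and 44 to 208 lower. Such a fit leaves 1 library in a pool, which is assumed to vary like the other pools. Of the 743 calls, 254 were kept without N replicate 1 and 269 without N replicate 2. With a replicate block, 578 genes were higher and 206 lower, but the libraries share only a number: same-numbered deviations from the pool means correlated at 0.21 between N and ACT, -0.004 between N and ACT_IL21 and 0.0008 between ACT and ACT_IL21. With the libraries scaled to 1 median, the median of all genes shifted by -0.087 and 67.4% of calls were higher, against 74.4%. The other settings gave 431 to 554 genes higher and 129 to 205 lower. Of the 193 genes named by rule, 0 reversed direction in any of the 15 settings that tested them. Nearly all were named because they passed the reported fit, and only genes that passed could count as reversed. A reversal was thus hardly possible, and its absence is no support for the calls. The cause of each change was not tested. Depth is unknown, so a gene that did not pass may differ by less than these 2 libraries a pool can show.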
